A study of Mus musculus with 4 samples.

Results

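Solute carrier (Slc) genes were followed through the transcriptomes of hematopoietic stem cells (HSC) and common lymphoid progenitors (CLP) of wild-type (WT) and GRK6-/- mice. Members were the genes whose symbol has the form Slc, a family number, letters and a member number, leaving out the glucose and lactate transporters Slc2a1, Slc2a3 and Slc16a1. They came to 203 of the 12750 gene symbols listed in the 4 libraries, in 44 families. The mitochondrial carriers of the Slc25 family made up 37 of them and are given apart from the 166 others.

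Solute carriers are membrane proteins that move nutrients, ions, metals, vitamins and metabolites across the plasma membrane and the membranes of organelles, mostly by exchange or by coupling to an ion gradient. The Slc25 family sits chiefly in the inner mitochondrial membrane and links the matrix to the cytosol, carrying ATP, phosphate, iron, amino acids and citric acid cycle intermediates. In blood-forming cells, solute carriers supply the amino acids and folate that dividing progenitors use, and the iron and glycine from which red-cell precursors build heme.

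Each group was 1 library from C57BL/6 bone marrow, and the labels name no treatment. HSC were sorted as Lin-c-kit+sca-1+ cells, and CLP, as far as the labels give the gates, by the same markers with Il-7Ra+, the interleukin-7 receptor, added. For each library, 13 to 15 cells of 3 to 4 mice were picked by hand, and their cDNA was amplified in 20 and then 10 cycles of PCR. GRK6-/- mice lack the kinase in every tissue through deletion of part of the Grk6 exons, so the sorted cells also developed in a GRK6-/- host.

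With 1 library per group there is no replicate check, and no difference below carries an error between animals. Levels are FPKM as deposited, that is, fragments scaled by the length of the transcript and by the depth of the library. A gene without an entry in a library is given as listed at 0. Such a 0 can be a failed estimate, because the ribosomal protein genes Rpl30 and Rps27 were also listed at 0, in WT CLP and in GRK6-/- HSC. From steps in the low values, the libraries held an estimated 2900000, 3810000, 4360000 and 2790000 fragments (WT HSC, GRK6-/- HSC, WT CLP, GRK6-/- CLP), so that 1 fragment in a transcript of 2 kb is worth 0.115 to 0.179 FPKM. Amplified fragments are not independent molecules. Il7r was 0 and 1.08 FPKM in the HSC libraries and 120 and 75.1 in the CLP libraries, and Ly6d, a marker of lymphoid progenitors, was listed at 0 in both HSC libraries and stood at 1438 and 1051 in CLP. Ly6a, which encodes the sorted sca-1 antigen, was listed at 0 in all 4 libraries. Grk6 itself was 42.7 (WT) and 89.4 FPKM (GRK6-/-) in the HSC libraries and 26.9 and 57.6 in those of CLP. This value covers the entire gene while the deletion removes part of it, so it does not check the labels, and every genotype direction below is that of libraries labelled GRK6-/- and WT.

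Red-cell markers differed with the genotype labels. Of 14 erythroid marker genes, 10 had an entry in at least 1 library, and their summed FPKM was 348 (WT) and 1765 (GRK6-/-) in HSC and 199.8 (WT) and 18191 (GRK6-/-) in CLP. The alpha-globin gene Hba-a2 accounted for most of the last value at 17220 FPKM, and without it the sums were 342, 1712, 182 and 971. Hba-a2 was the only globin gene in these sums. Hba-a1, the beta-globin genes Hbb-b1 and Hbb-b2, and Ahsp had no entry under their own symbols in any library. The 2 CLP libraries also differed in Alas2, listed at 0 in WT CLP against 128 in GRK6-/- CLP, and in Klf1, at 0.16 against 73.3. Car1, Car2, Ermap and Epor were highest in GRK6-/- HSC. The B-lineage list summed to 595 FPKM in WT CLP and 1740 in GRK6-/- CLP. The megakaryocyte list differed in opposite directions, at 149.6 (WT) and 13.1 FPKM (GRK6-/-) in HSC and 13.5 and 117 in CLP. The myeloid and neutrophil list summed to between 7764 and 17804 FPKM, and the T and NK list to between 278 and 629. The macrophage list summed to between 36.5 and 72.5, and the stroma and endothelium list to between 6.86 and 26.2. The HSC gate list summed to between 323 and 689 FPKM, and the CLP gate list to 243 and 218 in the HSC libraries against 2890 and 2070 in the CLP libraries. The part of these cell types in the results was not tested, and in pooled cells fewer cells of a type cannot be told apart from less RNA per cell.

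The members as a class were expressed at similar summed levels in the 4 libraries. Between 149 and 178 of the 203 had an entry in a library, 122 had one in all 4 and 31 in only 1. At least 10 FPKM was reached by 55 (WT) and 60 (GRK6-/-) members in HSC and by 60 and 62 in CLP, and 104 reached it in some library. Their summed FPKM was 3006, 3391, 3056 and 3450, which is 0.473%, 0.488%, 0.473% and 0.577% of the FPKM of all genes. A typical member was below the typical gene, with a median of 5.05 to 6.11 FPKM over members with an entry against 9.25 to 11.97 over all genes with one.

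The mitochondrial carriers took between 49.8% and 55.3% of the summed member FPKM in each library, and 3 of them took between 30.0% and 41.2%. Slc25a5, an ADP/ATP translocase that exports ATP from the matrix, was the highest member in every library, at 592 (WT) and 690 FPKM (GRK6-/-) in HSC and 585 and 575 FPKM in CLP. Slc25a3, the mitochondrial phosphate carrier, stood at 363, 602, 513 and 293 FPKM in the same order. Slc25a4, the other main ADP/ATP translocase, stood at 69.3, 107, 123 and 167 FPKM. Slc25a5 thus kept nearly the same level in all 4 libraries, while Slc25a3 was lowest and Slc25a4 highest in GRK6-/- CLP.

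Mitochondrial carriers grouped under malate, citrate and aspartate shuttles numbered 6, namely Slc25a1, Slc25a10, Slc25a11, Slc25a12, Slc25a13 and Slc25a22. None was past 2-fold between genotypes in HSC, where 19.3% of all genes were higher and 18% lower, and 1 was lower in CLP, where 26.6% were higher and 23.4% lower. Slc25a11, the oxoglutarate and malate carrier, was 79.2 (WT) and 74.3 FPKM (GRK6-/-) in HSC and 52.9 and 87.8 FPKM in CLP. Slc25a12, an aspartate and glutamate carrier, was 22.6, 26.9, 20.8 and 25.6 FPKM in that order. Its relative Slc25a13 stood lower in CLP, at 9.06 and 8.57 FPKM in the HSC libraries against 1.17 and 0.231 in the CLP libraries.

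**Figure D1:**
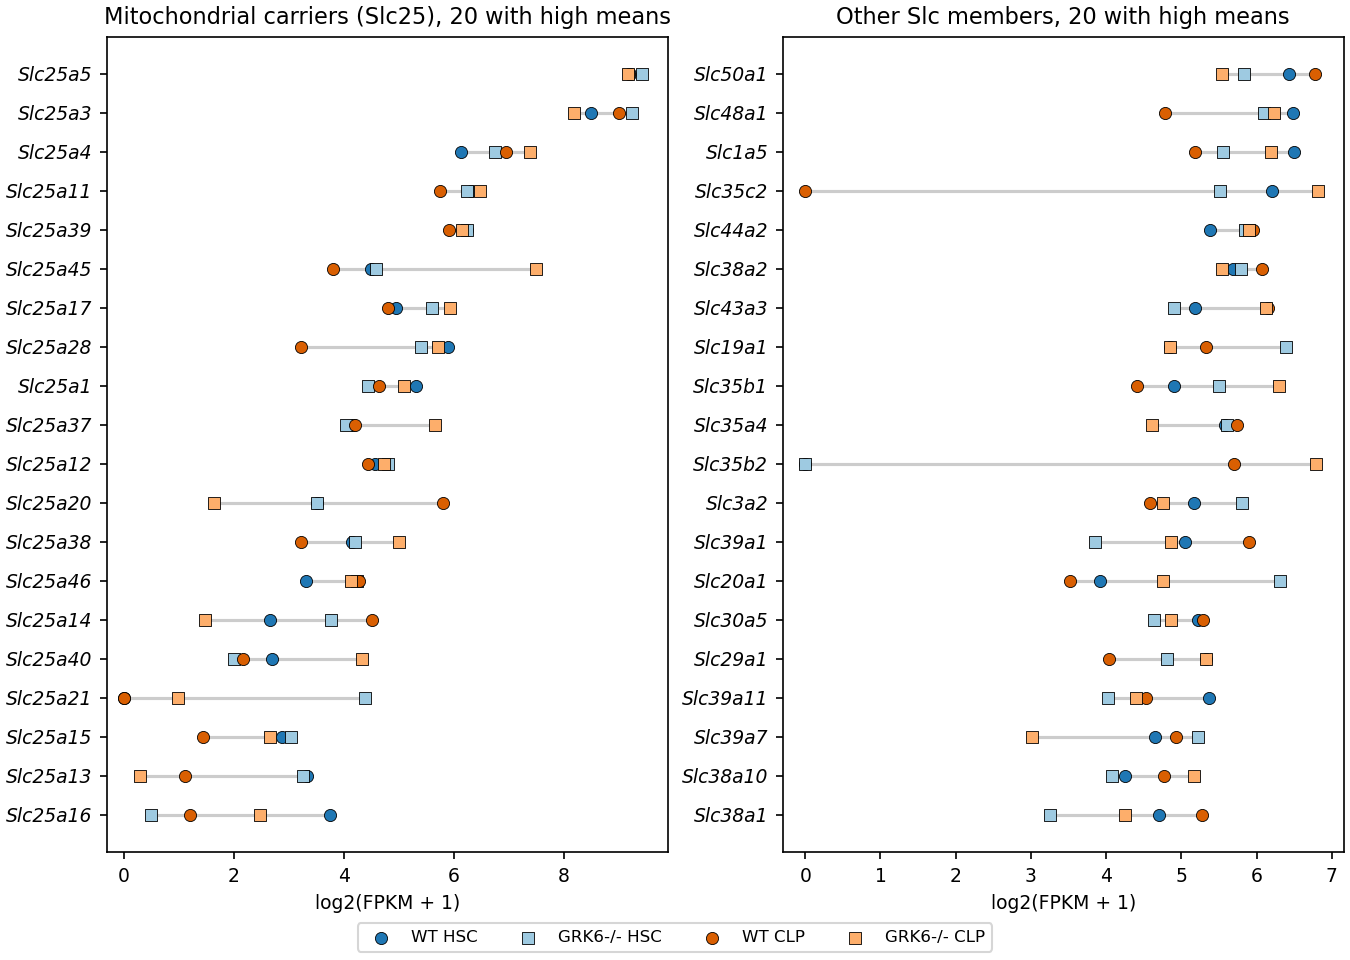
Levels of 20 Slc25 members (left) and 20 other members (right) with high means, as log2(FPKM + 1), with 1 point per library and a grey line from the lowest to the highest library. Slc25a5 and Slc25a3 stand above all others, and the long lines mark members with a library at or near 0, such as Slc35c2 in WT CLP and Slc35b2 in both HSC libraries.

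Outside the mitochondrial family, abundant members included carriers of sugar, heme, amino acids, choline and nucleotide sugars. Slc50a1, a sugar transporter, was 84.9 (WT) and 55.9 FPKM (GRK6-/-) in HSC and 109 and 45.7 FPKM in CLP. Slc48a1, which moves heme out of endolysosomes, was 88.3, 67.5, 26.5 and 74.0 FPKM, but its locus overlapped that of Hdac7, which stood at 103 FPKM in WT CLP and at no more than 12.4 elsewhere. Slc44a2, a choline transporter-like protein, was 40.7, 56.4, 61.2 and 58.5 FPKM.

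**Figure D2:**
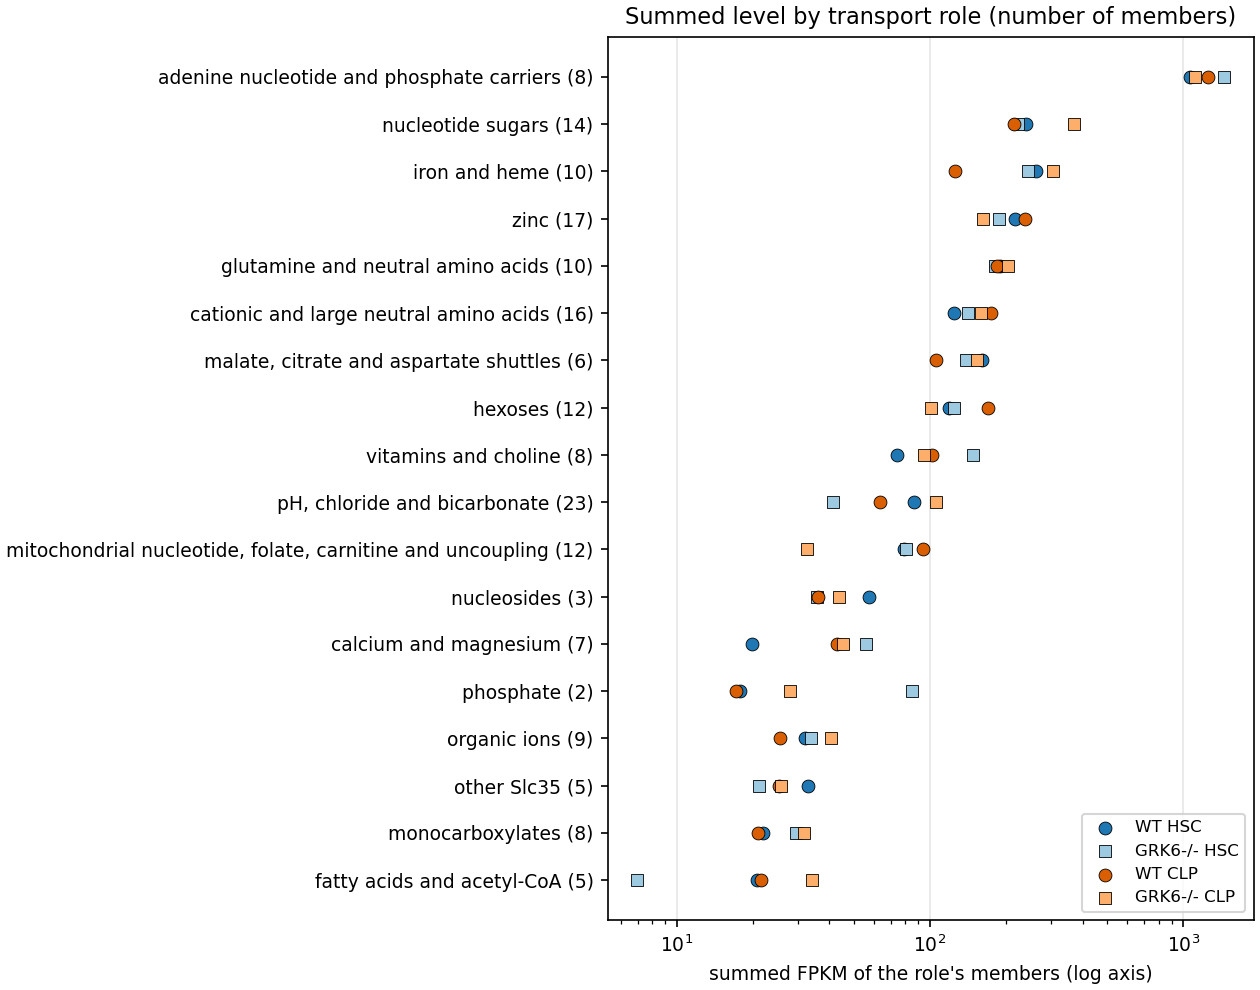
Summed FPKM (log axis) of the members of each transport role in the 4 libraries, with the number of members in parentheses. The adenine nucleotide and phosphate carriers lie between 1066 and 1453 in every library. The iron and heme role is lowest in WT CLP at 126 and highest in GRK6-/- CLP at 306. It includes Slc48a1, whose locus overlaps that of Hdac7.

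The first question of the design is what differs between GRK6-/- and WT within a population. In HSC, the members differed about as often as other genes did. Of 187 members with an entry in either HSC library, 35 (18.7%) were at least 2-fold higher in GRK6-/- HSC on the scale of FPKM + 1, against 19.3% of all genes, and 33 (17.6%) were at least 2-fold lower, against 18% of all genes. Among members with at least 10 FPKM in either library, 30 of 73 (41.1%) were past 2-fold either way, against 38.3% of all such genes. Of the members called, 14 of the 35 higher and 4 of the 33 lower were listed at 0 in the other library. The median log2 ratio of the members was 0.04, against 0.05 for all genes.

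In CLP, a larger share of members than of all genes was past 2-fold. Of 176 members, 64 (36.4%) were higher in GRK6-/- CLP, against 26.6% of all genes, and 48 (27.3%) were lower, against 23.4% of all genes. With at least 10 FPKM in either library, 54 of 84 members (64.3%) were past 2-fold either way, against 50.7% of all such genes. WT CLP listed the fewest members, and 23 of the 64 higher members were listed at 0 there. At a mean of 10 to 100 FPKM in the compared pair, 37 of 60 members (61.7%) were past 2-fold in CLP against 48.1% of all genes of that level, while in HSC they were 15 of 54 (27.8%) against 35.6%.

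**Figure D3:**
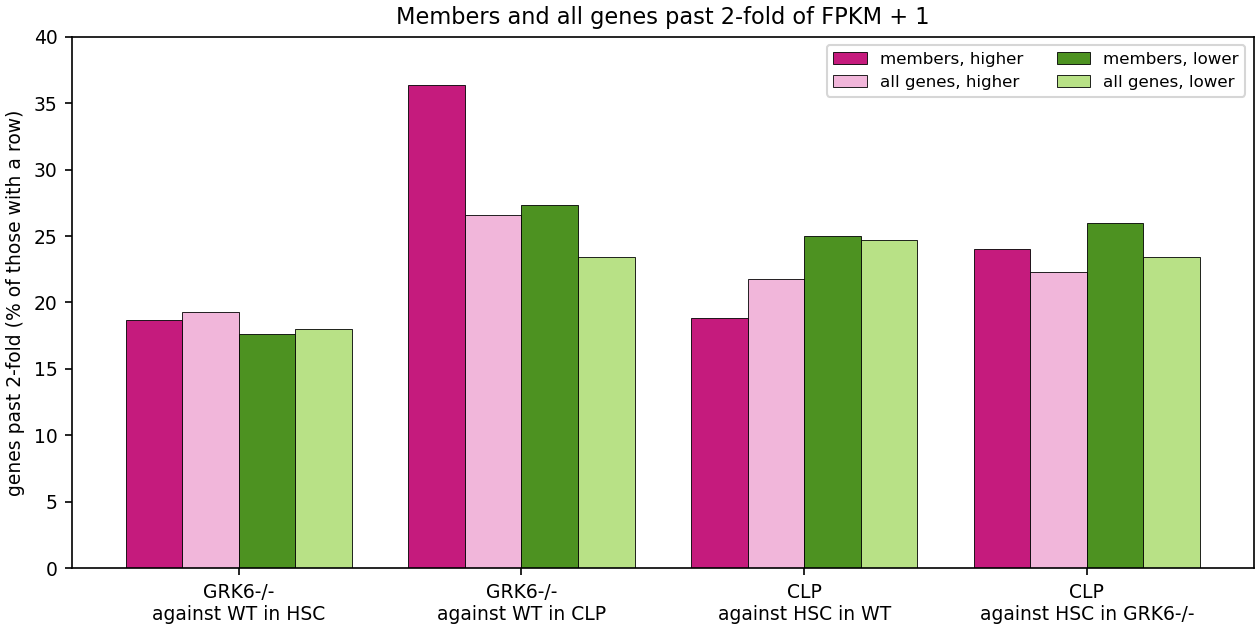
Percentage of genes past 2-fold of FPKM + 1 in each of the 4 comparisons, for members (dark bars) and all genes (light bars), higher in pink and lower in green. The members stand furthest above the background among genes higher in GRK6-/- CLP, at 36.4% against 26.6%.

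Fewer Slc25 carriers were past 2-fold in HSC than in CLP, as was also so for all genes. In HSC, 5 of 35 were at least 2-fold higher and 3 lower with the GRK6-/- label (19.3% and 18% of all genes), and none of the 13 with a mean of 10 to 100 FPKM was past 2-fold (35.6% of all genes of that level). In CLP, 13 of 35 were higher and 6 lower (26.6% and 23.4% of all genes), and 8 of the 13 of that level were past 2-fold (48.1%). The median log2 ratio of Slc25 was 0.10 in HSC and 0.44 in CLP, against 0.02 and 0.03 for the other members.

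Of 54 members with at least 10 FPKM in a library of each population, 5 (9.26%) were past 2-fold higher in both GRK6-/- libraries, against 4.69% of all such genes, and 4 (7.41%) were lower in both, against 3.81%. The 5 higher members were Slc38a5, Slc11a2, Slc22a17, Slc7a6 and Slc20a1. The 4 lower members were Slc18a2, Slc38a1, Slc39a1 and Slc30a9. Sequence upstream of the higher members is shown here because they are the members that were higher in both pairs. RefSeq promoters of the GRCm38.p6 build were found for 4 of the 5, and the 250 bases before the transcription start are printed 5′ to 3′ on the strand of the gene. Capitals mark GATA motifs, which are AGATAA or its variant AGATAG and likewise TGATAA or its variant TGATAG, and the GC box GGGCGG, all searched on both strands. No GATA match overlapped a GC box in these windows.
Slc38a5, chrX:8271131-8271380, plus strand: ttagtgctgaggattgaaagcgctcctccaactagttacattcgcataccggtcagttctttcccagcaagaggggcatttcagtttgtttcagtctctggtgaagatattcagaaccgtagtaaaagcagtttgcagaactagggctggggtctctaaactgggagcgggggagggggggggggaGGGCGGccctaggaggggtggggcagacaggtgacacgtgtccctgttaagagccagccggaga
Slc22a17, chr14:54913133-54913382, minus strand: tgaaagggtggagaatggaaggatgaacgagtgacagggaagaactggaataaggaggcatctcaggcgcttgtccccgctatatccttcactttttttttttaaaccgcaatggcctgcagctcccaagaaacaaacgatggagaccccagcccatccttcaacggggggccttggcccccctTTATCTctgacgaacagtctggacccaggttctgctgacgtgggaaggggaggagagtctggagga
Slc20a1, the upstream of 2 starts, chr2:129198523-129198772, plus strand: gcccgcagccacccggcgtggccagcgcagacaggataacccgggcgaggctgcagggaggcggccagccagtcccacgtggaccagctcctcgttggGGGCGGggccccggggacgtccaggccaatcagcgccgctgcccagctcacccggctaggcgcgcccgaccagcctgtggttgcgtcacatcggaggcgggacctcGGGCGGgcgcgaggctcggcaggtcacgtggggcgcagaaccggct
Slc7a6, the downstream of 2 starts, chr8:106168671-106168920, plus strand: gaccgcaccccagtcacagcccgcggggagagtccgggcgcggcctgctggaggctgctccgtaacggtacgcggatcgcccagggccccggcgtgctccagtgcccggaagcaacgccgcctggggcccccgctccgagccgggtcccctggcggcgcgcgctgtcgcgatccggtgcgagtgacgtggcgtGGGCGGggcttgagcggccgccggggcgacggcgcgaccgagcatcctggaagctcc
A GATA motif lay in the window of Slc22a17 alone among these 4, 66 bases before the start, and 26.5% of 32851 promoters held one in the same window, as did 36 of the 206 promoters of members (17.5%). A GC box lay in the printed windows of Slc38a5, Slc20a1 and Slc7a6, and also in that of the other Slc20a1 start, but not in that of the upstream Slc7a6 start, which is not printed. In the same window, 32.7% of all promoters and 119 of the 206 member promoters (57.8%) held one. These letters are a description of the sequence and not of bound factors.

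Slc38a5, which carries glutamine and other neutral amino acids, was listed at 0 in WT HSC and stood at 46.3 FPKM in GRK6-/- HSC. It was 0.13 FPKM in WT CLP, about 1 fragment, and 24.4 in GRK6-/- CLP. Slc38a5 was thus at or near 0 in both WT libraries, but the listed 0 of WT HSC can be a failed estimate. The GRK6-/- HSC and CLP values rested on an estimated 350 and 135 fragments. As amplified fragments are not independent molecules, these numbers do not tell how many of the pooled cells held the transcript. Slc11a2, the divalent metal transporter that takes up ferrous iron from endosomes, was 0.58 and 12.7 FPKM in WT and GRK6-/- HSC and 0.15 and 21.4 in the CLP pair. Its log2 ratios of FPKM + 1 were 3.12 in HSC and 4.28 in CLP, and both WT values rested on fewer than 10 fragments. Both genes were selected as higher in both GRK6-/- libraries, so sharing that order with the red-cell marker sums above followed from the selection. The part of red-cell RNA in them was not tested.

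Slc22a17, a receptor for the iron-binding protein lipocalin 2, was 3.11 (WT) and 16.3 FPKM (GRK6-/-) in HSC and 0.41 and 11.3 FPKM in CLP. Slc7a6, which exchanges cationic for neutral amino acids together with Slc3a2, was 3.77, 21.4, 4.07 and 21.9 FPKM in the same order. Its locus overlapped entries of the neighbour Slc7a6os in all 4 libraries (5.93, 24.1, 45.9 and 21.3 FPKM), and reads of the 2 genes may not be separable where they overlap. Slc20a1, a sodium-dependent phosphate importer, was 14.1 and 78.1 FPKM in WT and GRK6-/- HSC and 10.4 and 25.9 in WT and GRK6-/- CLP. In these 3 genes every GRK6-/- value lay above both WT values, which adds little, as they were selected as higher in both pairs.

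Of the 4 members lower in both GRK6-/- libraries, 3 lay close to the threshold in CLP. Slc18a2, the vesicular monoamine transporter, was 29.4 (WT) and 3.54 FPKM (GRK6-/-) in HSC and 10.7 and 4.79 FPKM in CLP. Its log2 ratio in CLP was -1.01, and -0.999 after the median ratio of all genes was set to 0, which ends that call. Its locus also overlapped the neighbour Pdzd8 in all 4 libraries, at 1.93 to 6.72 FPKM. Slc38a1, a glutamine importer, was 24.9, 8.53, 37.9 and 18.0 FPKM. Slc39a1, a plasma membrane zinc importer, was 32.0, 13.4, 58.9 and 28.1 FPKM. The last of these, the zinc transporter family member Slc30a9, was 33.3, 15.8, 21.3 and 5.69 FPKM, with log2 ratios of -1.03 in HSC and -1.74 in CLP. For Slc38a1 and Slc39a1 the WT and GRK6-/- values differed by a log2 ratio of -1.03 and -1.04 in CLP.

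**Figure D4:**
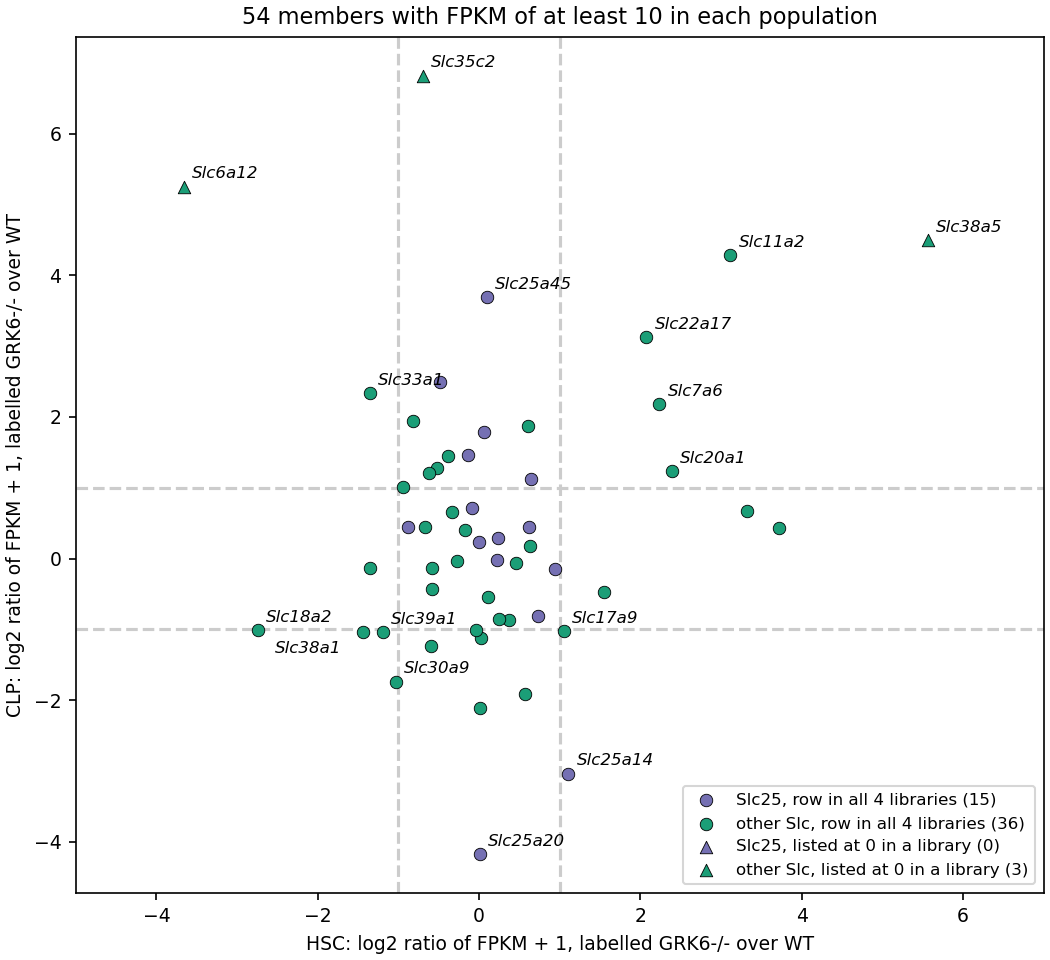
Log2 ratio of FPKM + 1, library labelled GRK6-/- over WT, in HSC (x axis) and CLP (y axis) for the 54 members with at least 10 FPKM in a library of each population, with dashed lines at 2-fold. The 5 members at the upper right were higher in both pairs, and 3 members drawn as triangles were listed at 0 in a library.

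The 4 libraries allowed a limma fit of population and genotype together, with 1 residual degree of freedom. For the genotype difference common to HSC and CLP, 0 of 183 members and 0 of 11230 genes (0%) had an adjusted p under 0.05, and 13 members and 500 genes had an unadjusted p under it. The lowest adjusted p of a member was 0.722, for Slc38a5, with a log2 difference of 5.03 (SE 0.944). The adjusted p of the other 8 members named above was 0.999, with log2 differences from -1.88 for Slc18a2 to 3.70 for Slc11a2 and SE from 0.926 to 0.973.

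Of 10 members listed under iron and heme, which include the glutathione importer Slc25a39, 9 had an entry in a CLP library. Of these 9, 6 were at least 2-fold higher in GRK6-/- CLP and 1 was lower, against 26.6% and 23.4% of all genes. In GRK6-/- HSC, 3 of 10 were higher and 0 lower, against 19.3% and 18%. The 3 include Slc46a1, listed at 0 in WT HSC and at 2.20 FPKM in GRK6-/- HSC. The role's summed FPKM was 263 and 244 in HSC of WT and GRK6-/- mice and 126 and 306 in their CLP. WT CLP thus stood below the other 3. Slc48a1, among the 6 higher members, entered these sums at 26.5 FPKM in WT CLP, where its overlapping neighbour Hdac7 stood at 103. Naming of the shared stretch cannot be told apart from a lower level of Slc48a1 there. Mitoferrin 1 (Slc25a37), the mitochondrial iron importer of red-cell precursors, was 17.1, 15.4, 17.4 and 49.8 FPKM. Mitoferrin 2 (Slc25a28), its broadly expressed relative, was 58.4, 41.4, 8.30 and 51.3 FPKM. The former stood apart in GRK6-/- CLP, and the latter in WT CLP.

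Slc25a38, which brings glycine into mitochondria for heme synthesis, was 16.7 and 17.5 FPKM in the HSC libraries, 8.33 in WT CLP and 31.3 in GRK6-/- CLP. Slc40a1, the iron exporter ferroportin, was 4.42 and 10.1 FPKM in WT and GRK6-/- HSC and 2.36 and 1.70 in WT and GRK6-/- CLP. Slc25a39, which imports glutathione into mitochondria, differed little, at 74.7, 74.4, 59.5 and 70.0 FPKM. No list of other members linked to red cells was made. Slc4a1 and Slc14a1 are given as examples that were highest in GRK6-/- CLP, and Slc14a1 was chosen after its values were seen. Slc4a1, the band 3 anion exchanger of the red-cell membrane, was 0.08 FPKM in WT HSC, listed at 0 in GRK6-/- HSC and WT CLP, and at 50.9 in GRK6-/- CLP. Slc14a1, the urea transporter that carries the Kidd blood group, was 16.2, 8.78, 8.16 and 34.3 FPKM. Of the erythroid markers, Hba-a2 and Alas2 were likewise highest in GRK6-/- CLP, whereas Car1 was 612 FPKM in GRK6-/- HSC against 67.3 in GRK6-/- CLP and Car2 was 955 against 577. The part of red-cell RNA in these members was not tested.

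**Figure D5:**
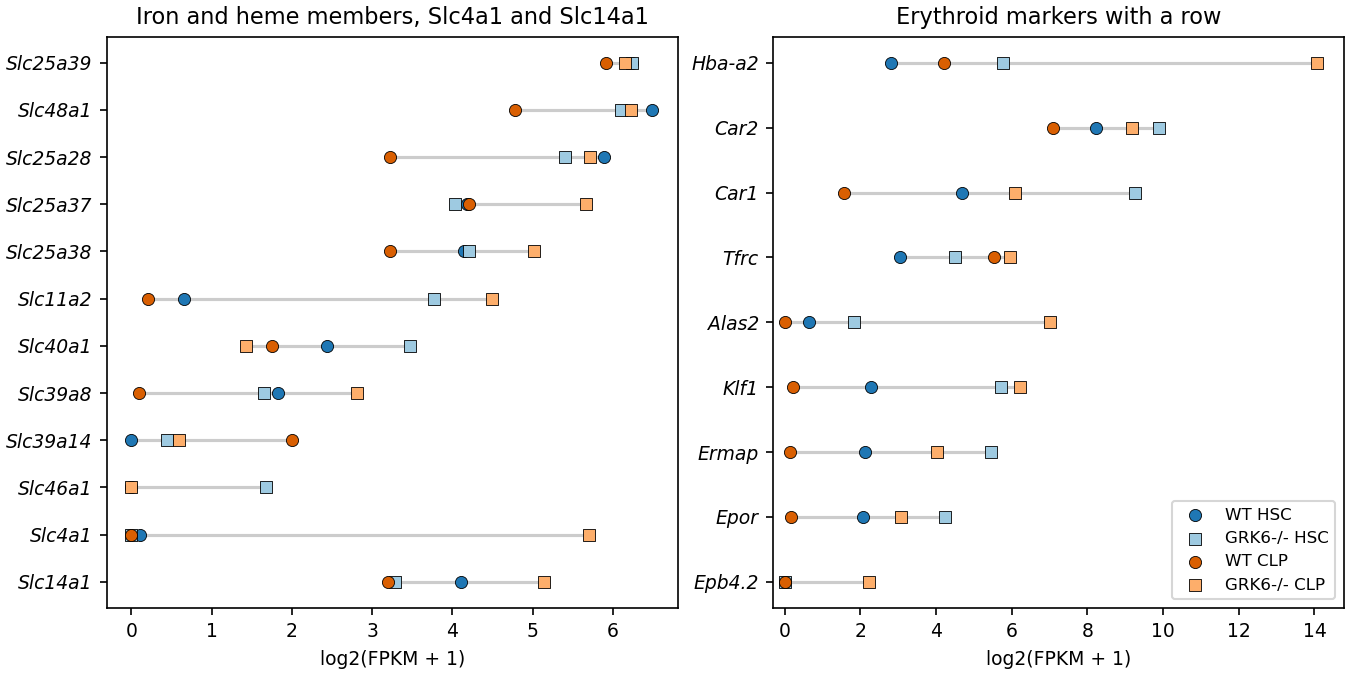
Log2(FPKM + 1) of the 10 iron and heme members with Slc4a1 and Slc14a1 (left) and of 9 erythroid markers with an entry (right), 1 point per library. Slc25a37, Slc25a38, Slc11a2, Slc4a1 and Slc14a1 are highest in GRK6-/- CLP, as are Hba-a2, Alas2, Klf1, Tfrc and Epb4.2, while Car1, Car2, Ermap and Epor are highest in GRK6-/- HSC.

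Amino acid carriers included members higher and members lower with the GRK6-/- label. Among the 10 for glutamine and neutral amino acids, 2 were higher and 1 lower past 2-fold in GRK6-/- HSC, and 3 higher and 3 lower of 8 in GRK6-/- CLP (all genes: 19.3% and 18% in HSC, 26.6% and 23.4% in CLP). Slc1a5, the main glutamine importer of dividing cells, was 89.1 (WT) and 46.0 FPKM (GRK6-/-) in HSC and 35.2 and 72.2 FPKM in CLP, so its genotype difference had opposite signs in the 2 populations. Slc38a2, induced by amino acid shortage, was 50.3, 54.3, 66.4 and 45.4 FPKM. Slc38a9, the lysosomal arginine sensor of the mTORC1 pathway, was 3.01, 4.09, 10.8 and 0.429 FPKM. Slc38a10 was 18.0, 15.9, 26.1 and 35.0 FPKM.

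The heavy chain of the large amino acid exchangers, Slc3a2 (CD98), was 35.0 (WT) and 54.8 FPKM (GRK6-/-) in HSC and 23.0 and 26.0 FPKM in CLP. Its light chain Slc7a5, which imports leucine, was 19.8, 12.9, 14.7 and 13.3 FPKM. Slc7a1, a cationic amino acid importer, was 4.60, 7.50, 8.19 and 10.4 FPKM. None of Slc3a2, Slc7a5 and Slc7a1 was past 2-fold between genotypes in either population. Of the 16 members of the role, 3 were higher and 4 lower past 2-fold in GRK6-/- HSC, and 2 of 11 higher and 3 lower in GRK6-/- CLP, beside the same shares of all genes. Slc43a2, an exporter of large neutral amino acids, stood apart in WT CLP at 34.5 FPKM, against 3.28, 0.956 and 4.57 in WT HSC, GRK6-/- HSC and GRK6-/- CLP. Slc43a1, a relative, was highest in GRK6-/- CLP at 11.0 FPKM, against 7.42, 1.61 and 3.63 in WT HSC, GRK6-/- HSC and WT CLP. Slc36a1, a lysosomal amino acid exporter, was highest in WT CLP at 12.1 FPKM and 1.60 in GRK6-/- CLP.

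Zinc carriers are taken here as the Slc30 family, most of which move zinc out of the cytosol, and the Slc39 family, most of which move it in. None of the 12 Slc39 genes was past 2-fold higher in GRK6-/- HSC and 3 were lower, while in GRK6-/- CLP 3 were higher and 6 lower. Of the 7 Slc30 genes, 2 were higher and 2 lower of 6 in GRK6-/- HSC, and 5 higher and 1 lower in GRK6-/- CLP. Of all genes, 19.3% were higher and 18% lower in GRK6-/- HSC, and 26.6% and 23.4% in GRK6-/- CLP. These family counts include Slc39a8 and Slc39a14, which also carry iron. Slc39a7, which releases zinc from the endoplasmic reticulum, was 24.2, 36.3, 29.3 and 7.06 FPKM (WT HSC, GRK6-/- HSC, WT CLP, GRK6-/- CLP). Slc39a6 stood apart in WT CLP at 32.2 FPKM, against 3.91, 8.47 and 8.74 in the other libraries. Slc39a11 stood apart in WT HSC, at 40.3 FPKM against 15.3, 22.2 and 20.1. Slc30a5, which loads zinc into the secretory pathway, varied least of these, at 36.2, 23.8, 38.2 and 28.1 FPKM.

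Several further zinc carriers were low in 1 or more libraries. Slc30a4 was 0.06 and 14.1 FPKM in the HSC pair (WT, GRK6-/-), listed at 0 in WT CLP and 4.24 FPKM in GRK6-/- CLP. Slc30a6 was 7.07 and 20.7 FPKM in the HSC pair and 2.65 and 7.15 in the CLP pair. Both were past 2-fold higher with the GRK6-/- label in each population, but reached 10 FPKM in HSC alone. Slc30a7 was 7.59 and 2.76 FPKM in the HSC pair and 0.9998 and 10.9 in the CLP pair. Slc39a13 was 2.20 and 5.31 FPKM in the HSC pair and listed at 0 in WT CLP against 10.7 in GRK6-/- CLP. Slc39a5 and Slc39a9 stayed within 2-fold between genotypes, at 7.10 to 14.9 and 5.59 to 10.8 FPKM over the 4 libraries.

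Slc19a1, the reduced folate carrier, was 27.8 (WT) and 83.2 FPKM (GRK6-/-) in HSC and 39.1 and 27.8 FPKM in CLP, with log2 ratios of 1.55 in HSC and -0.48 in CLP. Of 10 hexose and sugar phosphate carriers in HSC, 5 were past 2-fold higher and 0 lower in GRK6-/- HSC (19.3% and 18% of all genes), and in GRK6-/- CLP 3 of 11 were higher and 6 lower (26.6% and 23.4% of all genes). Slc2a8, an intracellular glucose transporter, was listed at 0 in WT HSC and stood at 6.88 FPKM in GRK6-/- HSC, and it was 18.4 and 2.32 in the CLP pair. Slc2a6 was 0.18 and 4.42 FPKM in the HSC pair and 1.57 and 26.6 in the CLP pair.

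The largest differences of GRK6-/- HSC from WT HSC included members of unlike roles. Slc25a21, a mitochondrial oxodicarboxylate carrier, was listed at 0 in WT HSC and WT CLP, at 20.0 FPKM in GRK6-/- HSC and at 0.98 in GRK6-/- CLP. Slc35b4, a Golgi nucleotide sugar transporter, was 1.12 (WT) and 20.1 FPKM (GRK6-/-) in HSC and 6.19 and 10.5 FPKM in CLP. Slc24a5, an ion exchanger known from pigment cells, was 1.39, 30.4, 19.3 and 26.4 FPKM. Its locus overlapped the neighbouring gene Myef2 in WT HSC, where Myef2 stood at 3.60 FPKM, and Myef2 was listed at 0 in the 3 libraries with high Slc24a5, so naming of the shared stretch cannot be told apart from a difference in Slc24a5.

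Among members lower in GRK6-/- HSC, Slc4a7, a sodium and bicarbonate cotransporter, had the lowest log2 ratio of those with at least 10 FPKM in either library and an entry in both, at -3.76. It was 23.2 (WT) and 0.79 FPKM (GRK6-/-) in HSC and 4.77 and 7.13 FPKM in CLP. Slc25a26, which brings S-adenosylmethionine into mitochondria, was 10.7 and 0.38 FPKM in the HSC pair and 5.09 and 0.20 in the CLP pair, below the floor of 10 FPKM in CLP, and its locus overlapped entries of Lrig1 in 3 libraries. Slc25a16 was 12.4 and 0.42 FPKM in the HSC pair and 1.31 and 4.60 in the CLP pair. Slc12a2, a sodium, potassium and chloride cotransporter, was 10.7 FPKM in WT HSC and between 0.70 and 1.29 in the other libraries. Slc29a3, a lysosomal nucleoside transporter, was 15.8 and 3.68 FPKM in the HSC pair, and Slc22a3, an organic cation transporter, was 12.2 and 3.79.

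Within the Slc25 family, Slc25a45 had the highest and Slc25a20 the lowest log2 ratio in CLP. Slc25a45 was 13.1 (WT) and 181 FPKM (GRK6-/-) in the CLP pair and 21.5 and 23.0 in the HSC pair. An estimated 1309 fragments lay behind the GRK6-/- CLP value. Slc25a20, which carries acylcarnitines into mitochondria for fatty acid oxidation, was 55.2 (WT) and 2.12 FPKM (GRK6-/-) in the CLP pair, a log2 ratio of -4.17, while both HSC libraries stood near 10.5. Both are values of a single pair of libraries. Slc10a1, a bile acid transporter, was listed at 0 in both WT libraries and at 6.51 and 13.4 FPKM in GRK6-/- HSC and CLP.

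Slc35c2, linked to GDP-fucose transport, had a WT CLP value that may depend on how an entry was named. It was 72.8 FPKM in WT HSC, 44.6 in GRK6-/- HSC, listed at 0 in WT CLP and at 112 in GRK6-/- CLP. In WT CLP its entire locus lay inside an entry named Elmo2, which stood at 37.8 FPKM there and between 6.04 and 9.73 in the other libraries. Naming of the shared stretch was not tested and cannot be told apart from a lower level of Slc35c2 there. The 0 is therefore not taken as a measure of Slc35c2. Of the 203 members, 22 overlapped an entry of another symbol in at least 1 library.

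Members lower in GRK6-/- CLP included Slc29a2, an equilibrative nucleoside transporter, and Slc35d2, a nucleotide sugar transporter, which were 12.2 and 11.1 FPKM in WT CLP and listed at 0 in GRK6-/- CLP. Slc35a3, the Golgi transporter of UDP-N-acetylglucosamine, was 13.3 and 0.89 FPKM in the CLP pair and 7.07 and 6.24 in the HSC pair. Slc2a8, Slc38a9 and Slc43a2, described above, had log2 ratios of -2.54, -3.05 and -2.67 in CLP.

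Of the 54 members with at least 10 FPKM in each population, 4 (7.41%) were past 2-fold in opposite directions in HSC and CLP, against 9.69% of all such genes. Slc33a1, the acetyl-CoA transporter of the endoplasmic reticulum, was 15.6 and 5.48 FPKM in WT and GRK6-/- HSC but 4.05 and 24.5 in WT and GRK6-/- CLP. Slc6a12, a betaine transporter, had the same pattern, at 11.7 FPKM in WT HSC and 37.1 in GRK6-/- CLP and listed at 0 in the other libraries. Slc25a14, a member of the mitochondrial uncoupling protein group, went the other way, at 5.32 and 12.6 FPKM in the HSC pair and 21.8 and 1.78 in the CLP pair. Slc17a9, the vesicular ATP transporter, was 4.72 and 10.8 in the HSC pair and 14.8 and 6.75 in the CLP pair.

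The other question of the design is how CLP differ from HSC. In WT, 33 of 176 members (18.8%) were at least 2-fold higher in CLP, against 21.8% of all genes, and 44 (25%) were lower, against 24.7%. In GRK6-/- mice, 46 of 192 (24%) were higher in CLP, against 22.3% of all genes, and 50 (26%) were lower, against 23.4%. With at least 10 FPKM in either library, 36 of 78 members (46.2%) were past 2-fold in WT, against 47.6% of all such genes, and 39 of 81 (48.1%) in GRK6-/-, against 47.1%. Each share lay near that of all genes.

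Few members with at least 10 FPKM in each genotype differed in the same direction in both. Others were past 2-fold alike but did not reach that level in each genotype, and are not in these counts. Of 56 with at least 10 FPKM in a library of each genotype, 2 (3.57%) were past 2-fold higher in CLP in both, against 6% of all such genes, and 2 (3.57%) were lower in both, against 5.63%. The higher members were Slc35b2 and Slc15a4. Slc35b2, the Golgi transporter of the sulfate donor PAPS, was listed at 0 in both HSC libraries and stood at 51.1 (WT) and 110 FPKM (GRK6-/-) in CLP, with an estimated 518 and 715 fragments. It was the only one of 202 members listed at 0 in both HSC libraries and at 10 FPKM or more in both CLP libraries. Of all genes, 0.129% had that pattern. This count adds little, as Slc35b2 was selected as higher in CLP in both genotypes. No entry of another symbol overlapped Slc35b2 in any library, but its listed 0 in both HSC libraries can be a failed estimate.

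Slc15a4, a histidine and peptide transporter of endolysosomes that acts in Toll-like receptor signalling, was 4.55 and 4.89 FPKM in the HSC libraries and 17.8 and 13.3 in the CLP libraries. Slc35a1, the Golgi CMP-sialic acid transporter, was among the lower members, at 16.4 and 13.2 FPKM in HSC and 5.22 and 5.12 in CLP. In both Slc15a4 and Slc35a1 the HSC and CLP values did not overlap, which adds little, as both were selected as past 2-fold alike.

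In the limma fit, 0 of 183 members and 1 of 11230 genes (0.0089%) had an adjusted p under 0.05 for CLP against HSC, and 7 members and 608 genes had an unadjusted p under it. The lowest adjusted p of a member was 0.246, for Slc35b2, with a log2 difference of 6.25 (SE 0.945). The adjusted p was 0.924 for Slc15a4 and 0.935 for Slc35a1. The single gene called was Ly6d.

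Nucleotide sugar carriers supply the Golgi with substrates for glycosylation. The role listed under that name numbered 14 members, among them Slc35b1 and the PAPS transporter Slc35b2, which carry other substrates. In WT CLP, 4 were higher and 3 lower past 2-fold than in WT HSC (21.8% and 24.7% of all genes). The 3 lower members include Slc35c2, whose WT CLP value is not taken as a measure of that gene, as given above. In GRK6-/- CLP, 4 were higher and 4 lower than in GRK6-/- HSC (22.3% and 23.4%). Slc35b1, which exchanges ATP across the endoplasmic reticulum membrane, was 28.9, 44.5, 20.3 and 77.3 FPKM (WT HSC, GRK6-/- HSC, WT CLP, GRK6-/- CLP). Slc35c1, the Golgi GDP-fucose transporter, was 38.2 and 23.7 FPKM in the HSC libraries and 10.1 and 14.2 in the CLP libraries. Slc29a1, the main equilibrative nucleoside transporter, was 39.1, 27.0, 15.5 and 39.1 FPKM.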

How the data were processed

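RNA of 4 pooled libraries, 1 per group, was measured by sequencing of amplified cDNA. The authors aligned reads with TopHat (1.4.0 in the submitters' processing notes) to mm9 and deposited FPKM, 1 value per gene and library, already scaled by transcript length and mapped fragments. The version of the quantifier is not given in the sources used here.

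From these values, entries of a symbol were summed, a gene without an entry was set to 0, and 333 symbols that share an entry with another were left out of counts, 1 member among them. Log2 ratios used FPKM + 1, with a threshold of 2-fold. limma 3.58.1 (R 4.3.3) was fitted to log2(FPKM + 1) of genes with at least 1 FPKM in a library, with population and genotype as terms and Benjamini-Hochberg adjustment over all of them. Depth was estimated from steps of low values. Python 3.11.15, numpy 2.4.6, pandas 2.3.3 and matplotlib 3.10.9 were used, and scripts were tested on simulated data.

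Members, roles and marker lists were chosen with earlier results of these data known. Genes named were the 12 highest members, the 8 largest differences each way per genotype comparison at 10 FPKM, those past 2-fold alike in both pairs, and the iron, zinc, amino acid and adenine nucleotide roles. Slc25a12, Slc25a13, Slc2a6, Slc14a1, Slc17a9, Slc19a1, Slc29a1, Slc33a1, Slc35b1 and Slc35c1 were chosen after their values were seen. Some genes that the rule names are not reported here. Alternatives were another pseudocount, filters, rescaling, the highest entry per symbol, a 4-fold threshold and, added after seeing the data, leaving out members inside an entry of another gene.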

Additional observations from a re-analysis of the deposited data

Results flagged for a closer look

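For 3 members with an entry in all 4 libraries, the difference between the libraries labelled GRK6-/- and WT was past 2-fold in opposite directions in HSC and CLP. The log2 ratio in CLP minus that in HSC was -2.07 for Slc17a9, -4.14 for Slc25a14 and 3.69 for Slc33a1. With 1 library per group these differences were not tested, and opposite directions were seen in 9.69% of all genes of the same level.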

How the results depend on the processing

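No named log2 ratio past the threshold changed sign. With a pseudocount of 0.1 the members higher in GRK6-/- HSC numbered 56 in place of 35. With at least 1 FPKM required in both libraries, members higher and lower past 2-fold were 14 and 19 for GRK6-/- against WT in HSC, 31 and 25 in CLP, 17 and 19 for CLP against HSC in WT, and 24 and 24 in GRK6-/-, from fewer members compared, so in HSC the lower members then outnumbered the higher. At 4-fold they were 15 and 10, 27 and 19, 14 and 24, and 15 and 14, where the main counts for CLP against HSC in GRK6-/- were 46 higher and 50 lower. The limma count for CLP against HSC was 0 with a pseudocount of 0.1, with no filter and with at least 1 FPKM in all 4 libraries, in place of 1, and the cause was not tested. Other alternatives, including rescaling and leaving out members inside an entry of another gene, left each count within 1.5 times. Of 268 named log2 ratios, 11 crossed the threshold with the pseudocount and 2 with rescaling. No library could be left out, since each group has 1, and values resting on a few fragments or listed at 0 set the limit of depth.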
